A study of Homo sapiens with 12 samples.

Results

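Glypicans are a family of cell surface proteoglycans with 6 human genes, GPC1 to GPC6, and their transcripts were examined after activation of p53 by either of 2 agents in U2OS, a line that was derived from a human osteosarcoma and retains wild-type p53. The genes were found through the platform annotation, which pairs 10 of the 54675 probe sets of the array with 1 glypican gene each: 2 for each of GPC1, GPC3, GPC4 and GPC6, and 1 for each of GPC2 and GPC5. The family was chosen on the doxorubicin change of GPC6, one of the most lowered genes in these same arrays. The doxorubicin values of GPC6, the difference between its responses to the agents and its change in DMSO against untreated cells are therefore given as a description with no test. The other genes entered as members of the family. The members and the gene lists below were chosen with earlier results of these data known. The groups were U2OS cells given 0.6 µg/ml doxorubicin, U2OS cells given no treatment, U2OS cells given 10 µM nutlin-3, and U2OS cells given 0.1% DMSO, the solvent control of nutlin-3. Each group had 3 arrays and each treatment lasted 24 hours. All groups are 1 cell line, and nothing in the labels says that the 3 arrays of a group came from different cultures. A p-value here therefore reflects array-to-array spread that may be technical.

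A glypican is a globular protein held on the outer leaflet of the plasma membrane by a glycosylphosphatidylinositol (GPI) anchor, and it carries heparan sulfate chains near the membrane. Through the chains and the core protein, glypicans hold or present Wnt, Hedgehog, fibroblast growth factor and bone morphogenetic protein ligands, and enzymes such as NOTUM can cut them from their anchor. Loss of GPC3 causes the overgrowth disorder Simpson-Golabi-Behmel syndrome in humans, and loss of GPC6 causes omodysplasia, a disorder of short limbs. Doxorubicin is a topoisomerase II poison that breaks DNA, whereas nutlin-3 frees p53 from its inhibitor MDM2 without breaking DNA.

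The values are MAS5 signals in arbitrary units, brought by the authors to a common trimmed mean on each array, and glypican levels are not compared between probe sets here because probe sets differ in efficiency. Changes are log2 changes of (signal + 16), which understate the change of dim probe sets. A probe set was tested where its mean signal was at least 54.6, the 40th percentile, and a call means an adjusted p under 0.05 from limma, with the Benjamini-Hochberg method over all 32768 such probe sets. Arrays of a group correlated at 0.972 to 0.987 over these probe sets. CDKN1A, the p53 target that encodes p21, had a mean signal of 7678 with doxorubicin against 1361 in untreated cells, and 7470 with nutlin-3 against 1507 in DMSO. MDM2, another p53 target, had 9408 with doxorubicin against 3500 in untreated cells, and 19512 with nutlin-3 against 4419 in DMSO. Among 8 mesenchymal and osteoblast markers, COL1A1, SPARC, VIM and RUNX2 passed the filter, and COL1A2, ALPL and SP7, with mean signals of 48.3, 42.9 and 13.7, did not. RUNX2, an osteoblast transcription factor, fell by 0.75 with doxorubicin (adjusted p = 0.00018 by limma), and 1 other of the 4 that passed was called higher. The summed signal of 7 such markers, carried by the bright COL1A1, SPARC and VIM, was 82081 to 91524 with doxorubicin against 77928 to 85448 in untreated cells, and 76823 to 85442 with nutlin-3 against 73121 to 81651 in DMSO. The summed signal of 4 leukocyte markers was 509 to 796 with doxorubicin against 155 to 246 in untreated cells, and 319 to 421 with nutlin-3 against 126 to 191 in DMSO. Of these 4 markers 2 passed the filter, and 1 was called higher with each agent. LAPTM5 rose with both agents, by 2.35 with doxorubicin and 1.84 with nutlin-3. PTPRC and CD14, also on the leukocyte list, had mean signals of 52.4 and 5.76 and did not pass the filter. The 4 epithelial markers, mostly KRT8, summed to 8869 to 10209 with doxorubicin against 9627 to 10863 in untreated cells, and to 8769 to 9022 with nutlin-3 against 7694 to 8053 in DMSO. Among them KRT14 fell by 1.66 with doxorubicin and was lower in DMSO than in untreated cells (-1.79), and EPCAM fell by 0.31 with doxorubicin and by 0.68 with nutlin-3. Of the 4 epithelial markers, 2 were called lower and 0 higher with doxorubicin, and 1 lower and 1 higher with nutlin-3. The 3 endothelial markers summed to 229 to 313 with doxorubicin against 210 to 261 in untreated cells, and to 142 to 184 with nutlin-3 against 121 to 165 in DMSO. The part of any of these markers in the results was not tested. For ACTB the ratio of 3' to 5' signal, a sign of RNA quality, was 2.48, 3.29 and 3.59 on the doxorubicin arrays against 1.44, 1.57 and 1.58 on the untreated ones, and it lay between 1.25 and 1.33 on all nutlin-3 and DMSO arrays. The ratio of the dap spike-in was 3.76, 7.79 and 11.5 on the doxorubicin arrays against 2.49, 3.27 and 2.75 on the untreated ones, while that of GAPDH was 1.02, 1.21 and 0.993 on the doxorubicin arrays against 1.01, 0.980 and 1.05 on the untreated ones. The ratios of ACTB and dap thus moved with every doxorubicin result below, and their part in them was not tested. Some values are also given for doxorubicin array 1 alone, the array of that group with the lowest ACTB and dap ratios. Its ratios of ACTB and dap still lay above those of every untreated array, so the ratios and the drug cannot be told apart there either.

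The family spans a wide range of gene lengths, and the promoter windows at hand differed in base composition. By RefSeq (GRCh38.p14), GPC2 on chromosome 7 covers 7.78 kb, GPC1 on chromosome 2 covers 32.4 kb, GPC4 and GPC3 lie 120 kb apart on chromosome X and cover 115 kb and 449.9 kb, and GPC6 and GPC5 lie 349 kb apart on chromosome 13 and cover 1191 kb and 1469 kb. RefSeq promoter windows of 300 bases were at hand for 5 of the 6 genes, all but GPC3. The windows of the 4 genes whose signal moved are printed from 5′ to 3′ along the gene, so that base composition can be read beside the changes given below, with each GC box (GGGCGG on either strand, overlapping boxes merged) in capitals. They are chr13:93226557-93226856 on the plus strand for GPC6, chr7:100177332-100177631 on the minus strand for GPC2, chr2:240435413-240435712 on the plus strand for GPC1 and chrX:133415440-133415739 on the minus strand for GPC4. The GPC6 window lies inside the RefSeq span of the gene, downstream of its outermost start at chr13:93216529, and may be that of only 1 transcript. The windows of GPC2, GPC1 and GPC4 hold the outermost start of their gene, so the GPC6 window is not of the same kind.
GPC6: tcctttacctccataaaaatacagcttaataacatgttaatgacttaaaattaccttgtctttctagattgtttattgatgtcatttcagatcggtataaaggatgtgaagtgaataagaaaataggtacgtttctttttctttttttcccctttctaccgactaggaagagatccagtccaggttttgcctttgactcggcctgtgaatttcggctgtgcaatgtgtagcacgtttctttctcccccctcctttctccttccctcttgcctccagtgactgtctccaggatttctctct
GPC2: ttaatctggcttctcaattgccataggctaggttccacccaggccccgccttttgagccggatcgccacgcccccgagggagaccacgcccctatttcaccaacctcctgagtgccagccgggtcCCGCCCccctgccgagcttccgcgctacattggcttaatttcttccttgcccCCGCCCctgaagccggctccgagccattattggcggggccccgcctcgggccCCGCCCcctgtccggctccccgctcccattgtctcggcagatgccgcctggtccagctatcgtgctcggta
GPC1: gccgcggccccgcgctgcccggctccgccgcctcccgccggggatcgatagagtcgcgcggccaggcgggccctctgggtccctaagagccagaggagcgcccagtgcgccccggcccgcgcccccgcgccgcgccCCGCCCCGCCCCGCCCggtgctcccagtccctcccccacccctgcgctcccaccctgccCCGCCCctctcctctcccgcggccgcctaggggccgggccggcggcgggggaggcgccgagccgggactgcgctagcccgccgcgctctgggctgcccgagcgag
GPC4: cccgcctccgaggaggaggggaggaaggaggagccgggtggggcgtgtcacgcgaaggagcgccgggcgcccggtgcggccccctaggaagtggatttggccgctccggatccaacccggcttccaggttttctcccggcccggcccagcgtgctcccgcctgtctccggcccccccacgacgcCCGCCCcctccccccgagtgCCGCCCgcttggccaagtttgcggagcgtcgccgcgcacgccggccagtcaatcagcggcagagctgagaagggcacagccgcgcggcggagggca
The GPC6 window held no GC box, 6 CpG dinucleotides and 40% G or C, and 11.8% of all 35116 promoter windows were at or below that G and C content. The windows of GPC2, GPC1 and GPC4 held 3, 4 and 2 GC boxes and 66%, 83.3% and 74.7% G or C, and that of GPC5 held 3 boxes and 65%. A GC box was present in 45% of all windows, and the median G and C content was 58.7%. The E2F site TTCCCGC, the CHR element TTTGAA and the p53 half-site consensus, each searched on both strands, were present in 6.55%, 15.2% and 6.63% of all windows and in none of these 5. That says only that these letters are not within the windows.

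GPC6 was the member with the largest difference between groups. Its brighter probe set, 227059_at, had signals of 371, 305 and 256 with doxorubicin, against 5537, 5278 and 5807 in untreated cells. Every doxorubicin array was far below every untreated array. The doxorubicin mean of 311 ± 57.8 was 0.0561 of the untreated mean of 5541 ± 264 (SD, n = 3 each), a log2 change of -4.10, which was the lowest change of all 13707 genes past the filter. The second probe set, 223730_at, had signals of 79.6, 115 and 92.0 with doxorubicin, against 1130, 734 and 789 in untreated cells. Its doxorubicin mean was 0.108 of the untreated one, a log2 change of -3.0, and again no arrays overlapped. Over the 12 arrays the log2 signals of the probe sets of GPC6 had a Pearson correlation of 0.979, which describes probe sets of 1 transcript in the same libraries. With doxorubicin array 1 alone, the changes were -3.84 and -3.21, and against DMSO arrays in place of untreated ones they were -3.65 and -2.37. In RNA from whole cultures, a lower level in every cell and the loss of the transcript from some cells cannot be told apart.

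With nutlin-3 the GPC6 signal stayed near that of its solvent control. Probe set 227059_at had signals of 4511, 4016 and 3612 with nutlin-3, against 4351, 3809 and 3999 in DMSO. The ranges of the groups overlapped, and the log2 change was -0.01 (95% confidence interval -0.26 to 0.24, adjusted p = 0.98 by limma). Probe set 223730_at had 572, 553 and 537 with nutlin-3, against 580, 502 and 583 in DMSO. Its change was 0.00 (95% confidence interval -0.34 to 0.34, adjusted p = 1).

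The controls themselves differed for GPC6. In DMSO the brighter probe set had a mean of 4053 ± 275, against 5541 ± 264 in untreated cells (SD, n = 3 each), and the arrays did not overlap. The log2 changes of its probe sets were -0.45 and -0.63. They are given with no test, because the untreated arrays are also those for which GPC6 was chosen, and a high untreated level may have been favoured by the choice. The order of GPC6 levels was untreated, then DMSO and nutlin-3, whose arrays overlapped, then doxorubicin.

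**Figure D1:**
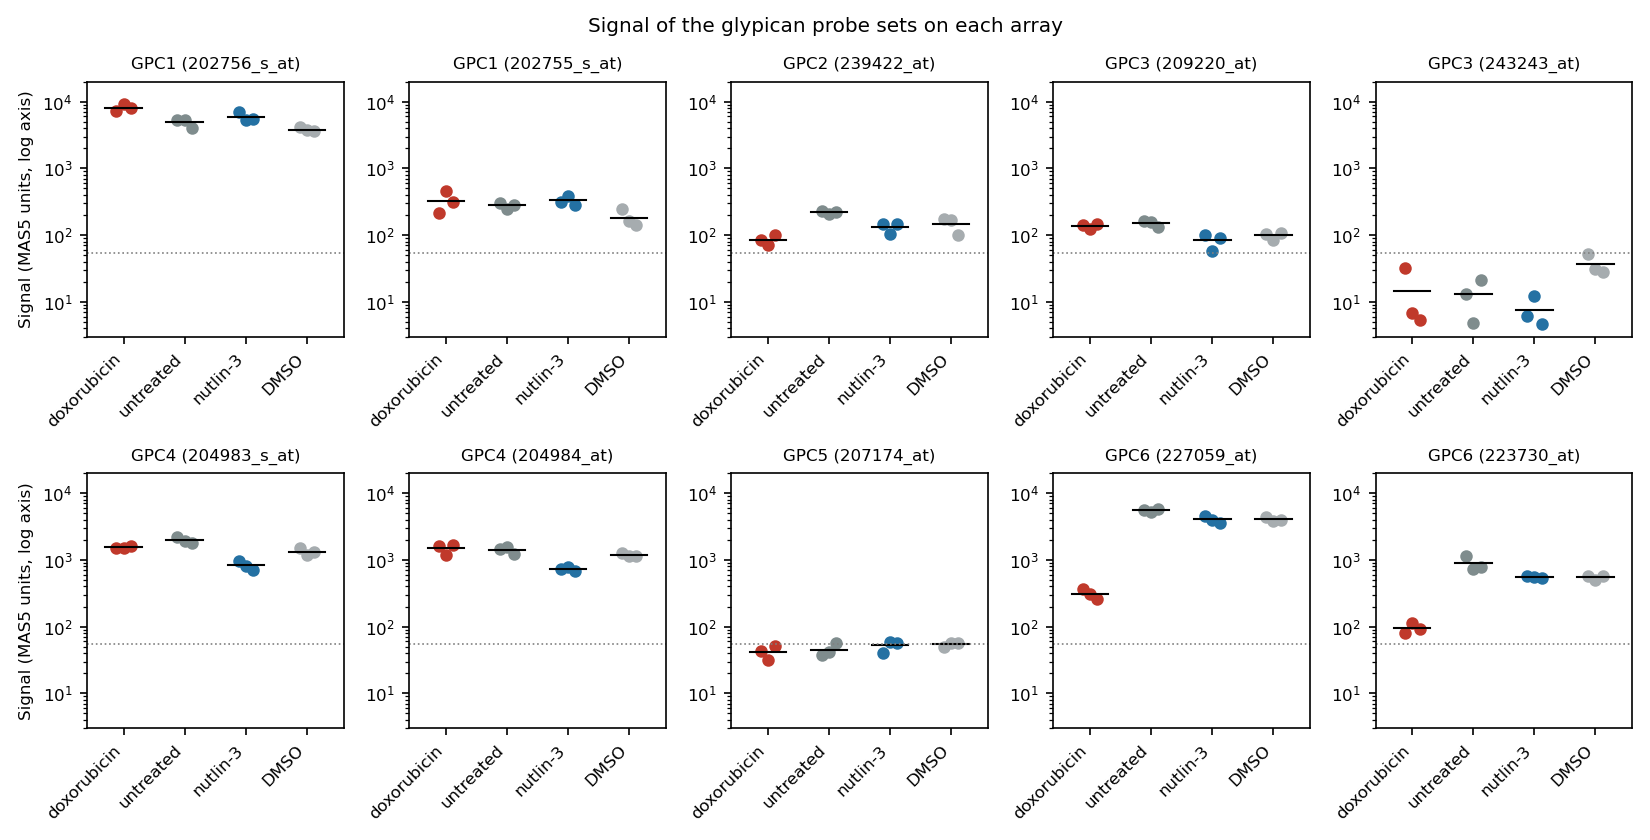
Signal of each glypican probe set (MAS5 units, log axis) on each of 12 arrays, 1 panel for each of the 10 probe sets. Points are arrays, black bars are group means of 3 arrays, and the dotted line is the filter signal of 54.6. The GPC6 panels show doxorubicin means of 311 and 95.5 far below those of the other groups, and the GPC4 panels show nutlin-3 means of 830 and 733 below the other groups.

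GPC2, the shortest gene of the family and one mostly active in the developing nervous system, also fell with doxorubicin. Its only probe set, 239422_at, had signals of 83.1, 71.4 and 101 with doxorubicin, against 234, 205 and 223 in untreated cells. All doxorubicin arrays lay below all untreated arrays, and the log2 change was -1.23 (SE 0.22, adjusted p = 0.00023 by limma). With nutlin-3 the signals were 148, 104 and 146, against 176, 169 and 99.1 in DMSO. These ranges overlapped (log2 change -0.12, 95% confidence interval -0.59 to 0.35, adjusted p = 0.79). The responses to the agents differed by -1.11 (SE 0.31, adjusted p = 0.013), the doxorubicin response being the lower. The control matters for the size, since DMSO arrays averaged 148 ± 42.4 against 221 ± 14.4 in untreated cells (SD, n = 3 each, log2 change -0.57, adjusted p = 0.11). Against DMSO, the change with doxorubicin was -0.67 (SE 0.22) and the arrays overlapped. Against untreated cells, the change with nutlin-3 was -0.69 (SE 0.22, adjusted p = 0.025 by limma) and no arrays overlapped. The difference between the responses thus depends on the control as well. With doxorubicin array 1 alone against untreated cells the change was -1.25 (adjusted p = 0.0049). The order of GPC2 levels was untreated, then DMSO and nutlin-3, whose arrays overlapped, then doxorubicin.

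GPC1, a widely expressed member that binds fibroblast growth factors, rose with both agents on its brighter probe set. Probe set 202756_s_at had signals of 7247, 9172 and 7997 with doxorubicin, against 5328, 5384 and 4090 in untreated cells. All doxorubicin arrays lay above all untreated arrays, and the log2 change was 0.72 (SE 0.12, adjusted p = 0.00013 by limma), or 0.56 (adjusted p = 0.016) with doxorubicin array 1 alone. With nutlin-3 it had 6944, 5356 and 5571, against 4096, 3739 and 3618 in DMSO. All nutlin-3 arrays lay above all DMSO arrays, and the change was 0.63 (SE 0.12, adjusted p = 0.0014). The difference between these responses was 0.09 (95% confidence interval -0.27 to 0.46, adjusted p = 0.73). The rise with nutlin-3 depended on the control, because DMSO arrays averaged 3818 against 4934 in untreated cells (log2 change -0.36, adjusted p = 0.063). Set against untreated cells, the nutlin-3 arrays overlapped with the controls and the change was 0.27 (SE 0.12, adjusted p = 0.099). The order of levels was doxorubicin, nutlin-3, untreated and DMSO, with no overlap between the first pair and overlap between the later neighbours.

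The dimmer GPC1 probe set gave a weaker and partly different picture. Probe set 202755_s_at had 212, 463 and 309 with doxorubicin, against 307, 250 and 286 in untreated cells. The widely spread doxorubicin arrays enclosed the untreated ones, and the change was 0.15 (95% confidence interval -0.35 to 0.65, adjusted p = 0.63). It had the opposite sign without doxorubicin array 2 (-0.12), with array 1 alone (-0.38) and with arrays centred on their medians (-0.03), and was 0.76 against DMSO (adjusted p = 0.014). With nutlin-3 it had 317, 390 and 286, against 246, 161 and 142 in DMSO. No arrays overlapped, and the log2 change was 0.83 (SE 0.24, adjusted p = 0.022 by limma). That call was lost without nutlin-3 array 2 (adjusted p = 0.10), without DMSO array 2 (0.080) or 3 (0.10), and without the intensity trend (0.055), and against untreated cells the change was 0.22 (adjusted p = 0.52). The Pearson correlation of the GPC1 probe sets over the 12 arrays was 0.67, lower than for GPC6.

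GPC4, which in rodents is released by astrocytes and promotes synapse formation, fell with nutlin-3 on both of its probe sets. Probe set 204983_s_at had signals of 977, 820 and 693 with nutlin-3, against 1498, 1198 and 1292 in DMSO. Probe set 204984_at had 734, 776 and 689 with nutlin-3, against 1249, 1129 and 1155 in DMSO. On both, every nutlin-3 array was below every DMSO array, and the log2 changes were -0.68 (SE 0.13, adjusted p = 0.0010 by limma) and -0.67 (SE 0.13, adjusted p = 0.0011). Against untreated cells the nutlin-3 changes were -1.24 and -0.92, also with no overlap.

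With doxorubicin the GPC4 probe sets did not move alike. Probe set 204983_s_at had 1504, 1492 and 1612 with doxorubicin, against 2231, 1941 and 1766 in untreated cells. These arrays did not overlap, and the change was -0.36 (SE 0.13, adjusted p = 0.028 by limma). That call was lost without doxorubicin array 1 (adjusted p = 0.071) or 2 (0.070), without untreated array 1 (0.13) or 2 (0.056), with doxorubicin array 1 alone (0.12) and without the intensity trend (0.061). Against DMSO it had the opposite sign (0.21, SE 0.13). Probe set 204984_at had 1588, 1198 and 1697 with doxorubicin, against 1461, 1542 and 1225 in untreated cells. The ranges overlapped and the log2 change was 0.07 (95% confidence interval -0.19 to 0.34, adjusted p = 0.66), or -0.10 with arrays centred on their medians. On this probe set the responses to doxorubicin and nutlin-3 differed by 0.75 (SE 0.18, adjusted p = 0.0045), while on 204983_s_at they differed by 0.32 (95% confidence interval -0.06 to 0.70, adjusted p = 0.19). On 204983_s_at the order of levels was untreated, doxorubicin, DMSO and nutlin-3, of which only doxorubicin and DMSO overlapped, and on 204984_at the nutlin-3 arrays alone stood clear, below the other groups. The probe sets of GPC4 had a Pearson correlation of 0.89 over the 12 arrays.

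GPC3, an X-linked glypican that binds Hedgehog ligands and restrains growth, was dim. Probe set 209220_at had signals of 144, 122 and 149 with doxorubicin, against 163, 159 and 131 in untreated cells. It had 101, 57.2 and 90.8 with nutlin-3, against 105, 85.6 and 108 in DMSO. Both pairs of groups overlapped, with log2 changes of -0.12 (95% confidence interval -0.58 to 0.34, adjusted p = 0.69) and -0.25 (95% confidence interval -0.71 to 0.21, adjusted p = 0.51). The solvent groups were lower than the untreated arrays, as DMSO averaged 99.7 ± 12.3 against 151 ± 17.4 in untreated cells (SD, n = 3 each, log2 change -0.53, adjusted p = 0.12), and nutlin-3 against untreated gave -0.78 (adjusted p = 0.011). The second probe set of GPC3, 243243_at, had a mean signal of 18.1 and did not pass the filter. Its signals were 32.0, 6.70 and 5.27 with doxorubicin, against 13.2, 4.85 and 21.4 in untreated cells, and 6.13, 12.1 and 4.68 with nutlin-3, against 51.7, 30.9 and 28.4 in DMSO.

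GPC5, the longest glypican gene, had a mean signal of 48.5 on its only probe set, 207174_at, just under the filter. Its signals were 43.2, 31.9 and 50.9 with doxorubicin, against 37.1, 41.9 and 57.0 in untreated cells. They were 40.8, 58.7 and 57.2 with nutlin-3, against 49.3, 57.6 and 56.0 in DMSO. All groups overlapped with their control, and no detection calls were used that would say whether the transcript was present. Of the very long pair on chromosome 13, GPC6 alone passed the filter.

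The 2 GPC6 probe sets, of the 8 glypican ones past the filter, are left out of the doxorubicin count because the choice used their values. Of all 32768 probe sets tested 47.4% were called with doxorubicin, 23.7% higher and 23.7% lower. Without GPC6, 3 of 6 were called, 1 higher and 2 lower, a share near that of all probe sets. With nutlin-3, 4 of all 8 were called, 2 higher (GPC1) and 2 lower (GPC4), against 17.9% of all probe sets (8.4% higher and 9.54% lower). These calls are the paired probe sets of only 2 of the 5 glypican genes past the filter, so they are not separate members. Of all genes 23.6% were called with nutlin-3. In DMSO against untreated cells, GPC6 is left out of the count, because its values rest on untreated arrays that the choice used. Of the other 6 probe sets 1 was called, lower (GPC4 204983_s_at), or 16.7%. That is near the 13.6% of all probe sets that were called (5.65% higher and 7.94% lower). All 8 had a change below 0 in that comparison, with a median of -0.55 with or without GPC6, against a median of -0.02 over all probe sets. The 8 include both probe sets of GPC1, GPC4 and GPC6. The dim probe sets under the filter had the opposite sign in a fit without filter, 0.88 for GPC3 243243_at and 0.21 for GPC5 207174_at, neither of them called. The comparisons of doxorubicin and of DMSO share the untreated arrays, so a high untreated level enters both. Centring each array on its median shifts the median change of all probe sets from 0.04 to -0.14 with doxorubicin and from -0.02 to 0.11 for DMSO against untreated cells, and under it 34.1% of the doxorubicin calls and 64.2% of the DMSO calls were increases, against 50.1% and 41.5% without it. Without GPC6, the difference between the responses was called for 2 of 6 probe sets, or 33.3%, near the 30.4% of all that were called (15.5% higher and 14.9% lower). The arrays of the groups did not overlap for 52.5% of all probe sets with doxorubicin, 36.8% with nutlin-3 and 33.6% in DMSO against untreated cells.

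**Figure D2:**
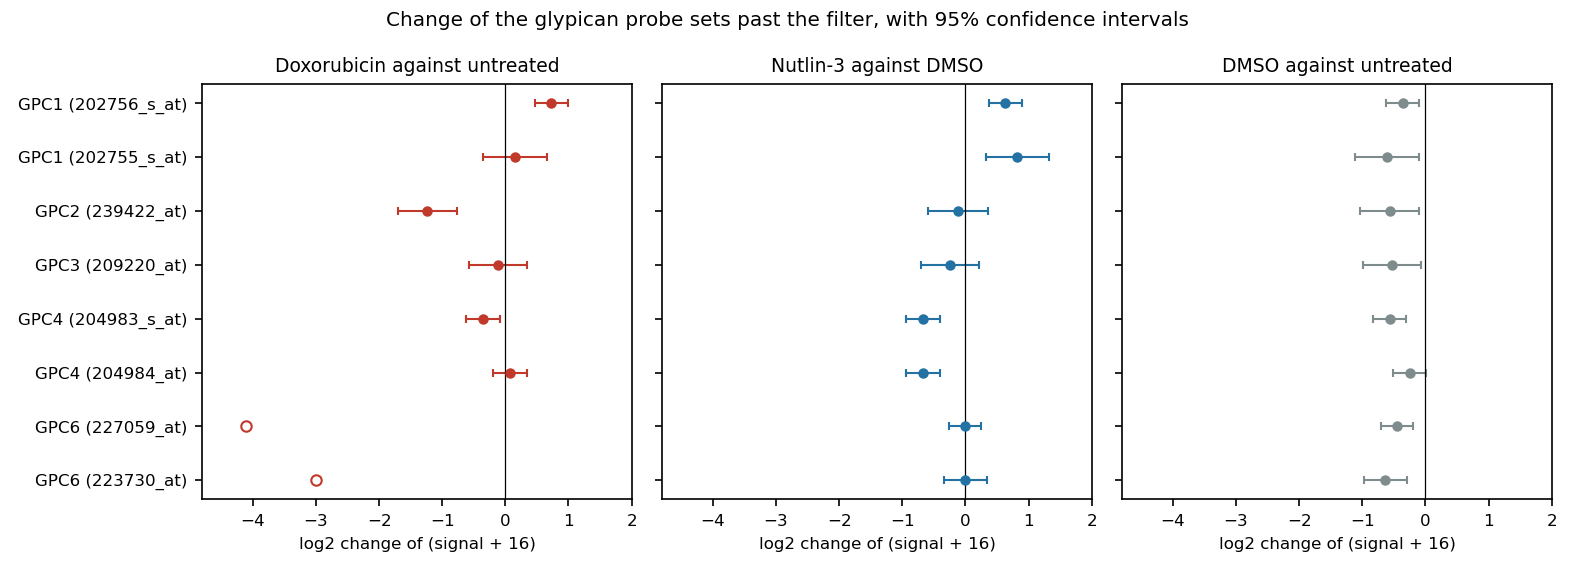
Log2 change of (signal + 16) of the 8 glypican probe sets past the filter in 3 comparisons, each from a fit of 12 arrays, with 95% confidence intervals not adjusted for the number of tests. Open points without interval are the doxorubicin values for which GPC6 was chosen (-4.10 and -3.0). The GPC6 intervals for DMSO against untreated cells are drawn but rest on untreated arrays used in the choice, and are no test. GPC1 lies right of 0 with nutlin-3 (0.63 and 0.83) and GPC4 left of it (-0.68 and -0.67).

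Gene length was set beside these changes because the family holds both very long and short genes. Across 13688 genes with a RefSeq length, each taken by its brightest probe set, the median log2 change with doxorubicin was 0.20 for genes under 10 kb, 0.14 for 10 to 30 kb, 0.06 for 30 to 100 kb, -0.12 for 100 to 300 kb, -0.54 for 300 to 1000 kb and -0.58 for genes over 1000 kb. Of the 39 genes over 1000 kb, 22 were called lower and 7 higher, against 24.9% of all genes called lower and 29.3% called higher. GPC6, at -4.10, had the lowest change of those 39 genes, whose lower quartile was -1.43. Within the family the order of changes was not that of lengths, since the 7.78 kb gene GPC2 had -1.23 while GPC3, at 449.9 kb, had -0.12 against a median of -0.54 for its length class. GPC1 (0.72) lay above the median of its class, and the probe sets of GPC4 lay on either side of theirs (-0.36 and 0.07, against -0.12). With nutlin-3 the class medians lay between -0.04 and 0.05, and the 1191 kb gene GPC6 had -0.01. Centring each array on its median moves the median doxorubicin change of all genes from 0.08 to -0.10. The 3 longest genes past the filter were RBFOX1, CNTNAP2 and CSMD1, with doxorubicin changes of 0.65 (adjusted p = 0.062), -1.17 and -0.58.

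**Figure D3:**
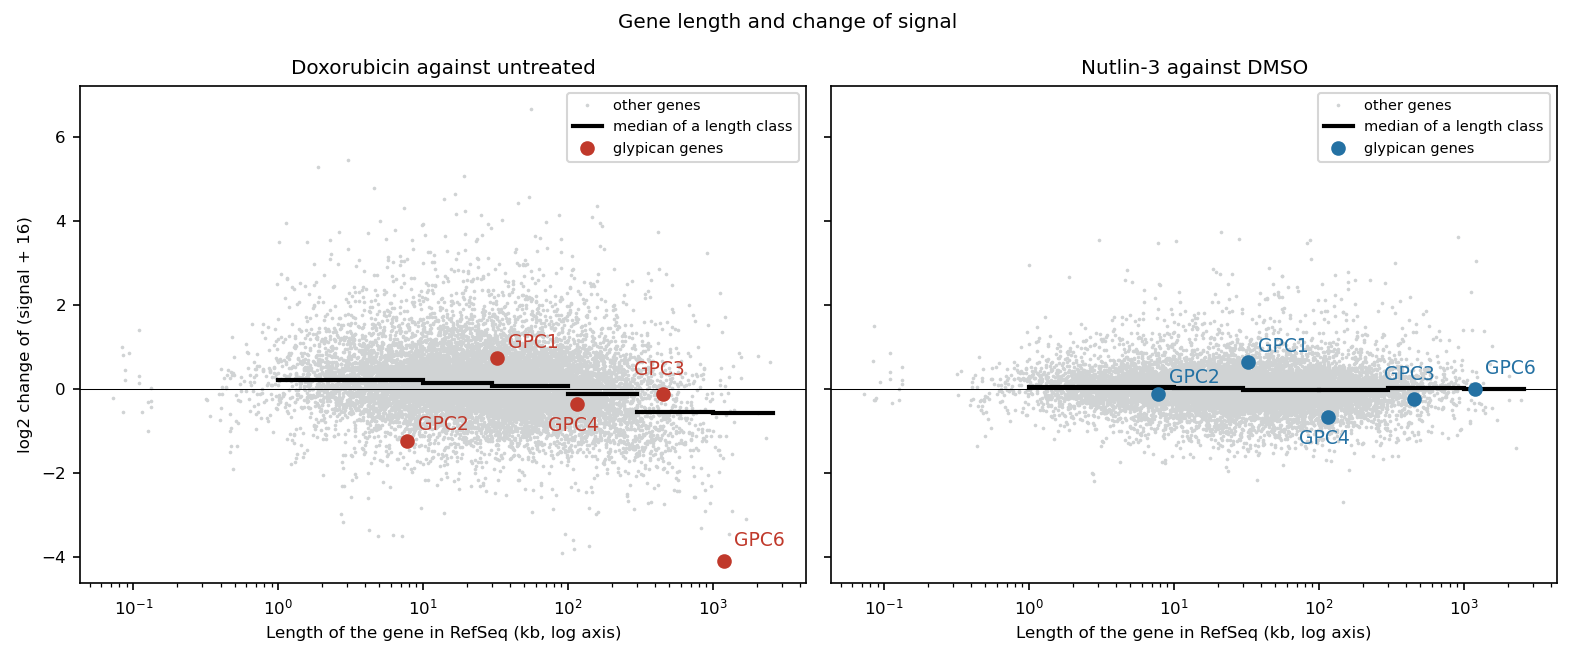
Gene length in RefSeq (kb, log axis) against log2 change of (signal + 16) for doxorubicin (left) and nutlin-3 (right), 1 point per gene past the filter, with the 5 glypican genes past the filter in colour and black bars at the median of each of 6 length classes. With doxorubicin the medians step down to -0.58 over 1000 kb and GPC6 lies at -4.10, and with nutlin-3 they stay within -0.04 to 0.05 and GPC6 lies at -0.01.

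Genes next to the glypicans on the chromosome changed in either direction. TGDS, 166 kb beyond GPC6, rose by 0.69 with doxorubicin (SE 0.09, adjusted p = 9.2e-06 by limma) and by 0.37 with nutlin-3. On its other side, past GPC5, the nearest gene above the filter was SLITRK6, 7417 kb away, with a change of -1.67 with doxorubicin and a DMSO level that was also lower than in untreated cells (-2.24). GAL3ST4, a galactose sulfotransferase gene that lies 0.989 kb from GPC2, rose by 2.11 with doxorubicin (SE 0.34) while GPC2 fell. On the other side of GPC2, CASTOR3P rose by 0.59. Beside GPC1, the changes with doxorubicin were 2.25 for OTOS, 295 kb away, which passed the filter only through its doxorubicin signal, and 0.01 for ANKMY1 (adjusted p = 0.97), 0.556 kb away. On chromosome X, HS6ST2 next to GPC4 fell by 1.09 and PHF6 beyond GPC3 fell by 0.98 with doxorubicin, and with nutlin-3, where GPC4 fell, neither passed the test (-0.11 and -0.26).

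The genes whose signal followed GPC6 most closely over the 12 arrays were TENM2 (Pearson r = 0.992), NIPBL (0.989), SLC35F3 (0.989), BCAT1 (0.989) and TFPI (0.988). The 12 arrays hold only 4 groups, so such a correlation mainly restates that a gene was low with doxorubicin and level in the other groups. TENM2, a teneurin gene of 1285 kb, had a mean signal of 1535 with doxorubicin against 17071 in untreated cells, and the lengths of the others were between 90.2 and 420 kb. For GPC1 the closest were TIMP1 (0.984), which encodes a metalloproteinase inhibitor, and PRICKLE2 (0.970), and both rose with doxorubicin and with nutlin-3. For GPC4 they were TMEM245 (0.977) and SFRP1 (0.975), a secreted Wnt antagonist that fell by 0.58 with nutlin-3 (adjusted p = 7e-04). For GPC2 they were DHX35 (0.939) and BACE2 (0.921), and for GPC3 LEFTY1 (0.932) and CHD6 (0.929).

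The enzymes that build and finish heparan sulfate, other proteoglycans that carry it, and pathways that glypicans act in were examined as 7 lists of 92 genes, of which 73 passed the filter. The lists were chosen with earlier results of these data known. With doxorubicin 28 rose and 20 fell, 65.8% of the 73 against 54.2% of all genes tested. With nutlin-3 10 rose and 15 fell, 34.2% against 23.6% of all genes (11.1% higher and 12.5% lower). The difference between the responses was called for 33 of the 73, 22 higher and 11 lower, against 36.9% of all genes (20.3% higher and 16.6% lower). Their median changes with the agents were 0.22 and -0.06, against 0.08 and 0.00 for all genes. No list was tested as a set. The single lists below are short, and their shares called, high or low, cannot be set apart from that of all genes.

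Chain assembly held the sharpest fall among the enzymes with doxorubicin. Of 11 genes 5 rose and 3 fell (median 0.06), or 72.7% called against 54.2% of all genes. EXT1, a subunit of the polymerase that extends the chain on every glypican, fell by 1.74 (SE 0.10), and EXTL2, a related transferase, fell by 0.76. PXYLP1, which removes a phosphate from the linker sugar, rose by 1.13 and B4GALT7, a linker galactosyltransferase, by 0.82. With nutlin-3 2 rose and 1 fell (median 0.03), or 27.3% called, near the 23.6% of all genes. XYLT1, which starts the chain, rose by 0.71, B3GALT6, another linker enzyme, by 0.44, and PXYLP1 fell by 0.33.

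Enzymes that modify the chain went both ways with each agent. Of 10 genes, 4 rose and 4 fell with doxorubicin (median 0.51), and 2 rose and 4 fell with nutlin-3 (median -0.09). The shares called were 80% with doxorubicin and 60% with nutlin-3, against 54.2% and 23.6% of all genes. HS3ST4, called with both agents, and HS3ST6, called with doxorubicin, had control signals under the filter, so the filter favoured rises for them. They count in these shares and in those of all lists together. SULF2, a sulfatase at the cell surface that trims sulfate from finished chains, rose with both agents, to mean signals of 902 with doxorubicin against 142 in untreated cells and 1213 with nutlin-3 against 174 in DMSO (log2 changes 2.54 with doxorubicin and 2.70 with nutlin-3, SE 0.17 each). HS3ST6 rose by 1.66 with doxorubicin, where its mean signal was 202 against 53.8 in untreated cells, which lies under the filter, and HS6ST2 and NDST1, sulfotransferases of the chain, fell by 1.09 and 0.88. With nutlin-3 HS3ST4 rose by 1.36, and it passed the filter only through the treated groups, with mean signals of 96.4 with doxorubicin and 113.8 with nutlin-3, against 27.2 in untreated cells and 35.7 in DMSO. Also with nutlin-3, HPSE, which encodes heparanase, and HS6ST1 fell by 0.80 and 0.78.

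Of the genes of donor supply and of anchoring, 1 of 8 and 2 of 12 were called with nutlin-3, or 12.5% and 16.7%, against 23.6% of all genes. Like the other lists, high or low in their shares, these are too short to set such counts apart from the share of all genes. With doxorubicin the shares called were 75% and 58.3%, against 54.2% of all genes. Of 8 genes that supply sugar and sulfate donors 3 rose and 3 fell with doxorubicin (median -0.12), among them SLC35D1, a nucleotide sugar transporter, at 1.45, UXS1, which makes UDP-xylose, at 0.55, and the sulfate donor synthases PAPSS1 and PAPSS2 at -0.42 each. With nutlin-3 only UGP2 was called (-0.39, median of the list -0.02). Of 12 genes of cleavage, anchoring and release 4 rose and 3 fell with doxorubicin (median 0.10). PGAP1, which remodels the GPI anchor, rose by 1.22, the anchor transamidase subunit genes GPAA1 and PIGU rose by 0.93 and fell by 0.89, and GPLD1, a phospholipase that cuts such anchors, fell by 0.59. With nutlin-3 PGAP1 rose by 0.72 and PCSK5, a proprotein convertase, fell by 0.62 (median -0.07).

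Among 11 genes of other heparan sulfate proteoglycans, 6 rose and 2 fell with doxorubicin (median 0.55), and 2 rose and 3 fell with nutlin-3 (median 0.19). The shares called were 72.7% with doxorubicin and 45.5% with nutlin-3, against 54.2% and 23.6% of all genes. Of the syndecans, which span the membrane, SDC1 rose by 1.33 with doxorubicin and 0.79 with nutlin-3, SDC4 by 1.24 with doxorubicin and 1.01 with nutlin-3, and SDC2 fell by 1.47 with doxorubicin and 1.45 with nutlin-3. SDC3 had 0.47 with doxorubicin and 0.05 with nutlin-3 and was not called. The nutlin-3 rise of SDC1 depended on the control, since its mean signal was 3905 with nutlin-3, against 2239 in DMSO and 3708 in untreated cells. TGFBR3, or betaglycan, fell by 1.23 with doxorubicin, and SPOCK3, a secreted testican, fell by 1.21 with nutlin-3.

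In the Hedgehog pathway, whose ligands GPC3 and GPC6 bind, 4 of 14 genes rose and 4 fell with doxorubicin (median -0.26), and 2 rose and 5 fell with nutlin-3 (median -0.24). The doxorubicin share called, 57.1%, was near the 54.2% of all genes, and the nutlin-3 share was 50% against 23.6%. PTCH1, the receptor and itself a target of the pathway, fell by 2.01 with doxorubicin (SE 0.11) and by 0.99 with nutlin-3. HHIP, a decoy receptor for the ligands, rose by 2.27 with doxorubicin and 0.83 with nutlin-3. Its nutlin-3 rise too depended on the control, with a mean signal of 678 with nutlin-3, against 376 in DMSO and 675 in untreated cells. The transcription factor gene GLI2 fell by 1.12 with doxorubicin, and HHAT, which adds palmitate to the ligands, rose by 0.63 with nutlin-3. GAS1, a co-receptor, rose by 1.06 with doxorubicin and fell by 1.36 with nutlin-3. Of 7 genes of FGF2 and its receptors 2 rose and 1 fell with doxorubicin (median 0.22), with FGFR3 at 1.98, FGFR2 at 0.41 and FGF1 at -0.51, and with nutlin-3 only FGF1 was called, at 0.87 (median -0.23). These were shares of 42.9% with doxorubicin and 14.3% with nutlin-3, against 54.2% and 23.6% of all genes.

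**Figure D4:**
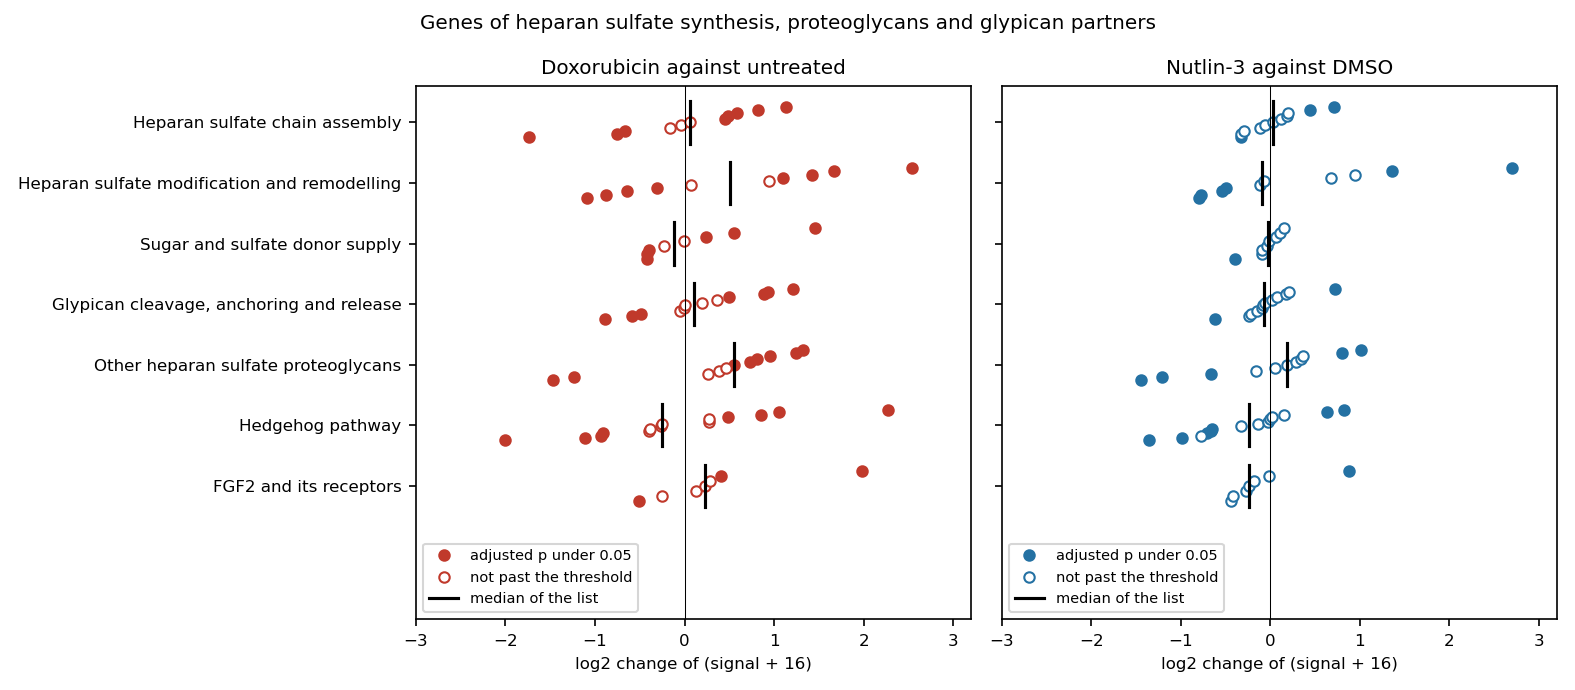
Log2 change of (signal + 16) of 73 genes in 7 lists with doxorubicin (left) and nutlin-3 (right), 1 point per gene, filled where the adjusted p was under 0.05, with a black bar at the median of each list. The far points are SULF2 at 2.54 and 2.70, HHIP at 2.27 with doxorubicin, and PTCH1 at -2.01 with doxorubicin.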

How the data were processed

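Labelled RNA from U2OS cells had been hybridised to Affymetrix Human Genome U133 Plus 2.0 arrays, 12 arrays in 4 groups of 3 taken from the sample titles. Values in the deposited series table are linear signal intensities, which the authors made with MAS5 per the submitters' processing notes. Its version and settings are not given in the sources used here, and no detection calls were used. Array medians were 79.6 to 114, and the mean after trimming 2% at each end was 500.1 on every array. Values were turned into log2(signal + 16). The 62 control probe sets and probe sets under the 40th percentile of mean signal were left out, leaving 32768. By the platform annotation 41091 probe sets have 1 gene, 1801 have several, and 11721 are unnamed here. Symbols were updated by gene identifier through RefSeq.

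limma 3.58.1 in R 4.3.3 (lmFit, eBayes with trend) fitted 4 group means to all 12 arrays with no block, and p-values were adjusted over all 32768 probe sets. The fit was tested on simulated data. A gene outside the family was taken by its probe set with the highest mean. The named list genes are, per list and agent, up to 2 called rises and 2 called falls with the largest change and no overlap between arrays. Members and lists were chosen with earlier results of these data known. The number of arrays limits the precision. Alternatives covered scaling, pseudocount, filter, 1 probe set per gene, trend, array weights, fewer arrays, a block, thresholds and each array left out. A further 2, the other control group and doxorubicin array 1 alone, were added after seeing the data.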

Additional observations from a re-analysis of the deposited data

Results flagged for a closer look

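The responses of GPC2 and of 1 GPC4 probe set to the agents differed by a direct test in limma's fit. GPC2 (239422_at) had a doxorubicin response lower than its nutlin-3 response by a log2 difference of -1.11 (SE 0.31, adjusted p = 0.013), with all 3 doxorubicin arrays below all 3 untreated arrays. GPC4 (204984_at) had a difference of 0.75 (SE 0.18, adjusted p = 0.0045), with all 3 nutlin-3 arrays below all 3 DMSO arrays. The other GPC4 probe set had 0.32 (adjusted p = 0.19). Each response has its own control group, and the controls differed by -0.57 for GPC2 (adjusted p = 0.11) and by -0.25 for this GPC4 probe set (adjusted p = 0.21). With the controls exchanged, GPC2 had -0.67 with doxorubicin against DMSO and -0.69 with nutlin-3 against untreated cells.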

How the results depend on the processing

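Of 155 alternative counts of calls, 144 stayed within 1.5 times the one over all 8 glypican probe sets or 73 pathway genes. The glypican counts include GPC6, and in the main fit they were 5, 4, 3 and 4 for doxorubicin, nutlin-3, DMSO and the difference. GPC6 was not called with nutlin-3. Its calls in the other comparisons rest on values that the choice used, so their staying in these counts is no support. With a change of at least 2-fold also required, the glypican probe sets called numbered 3 with doxorubicin, 0 with nutlin-3 and 0 for DMSO against untreated cells, and the pathway genes 18 with doxorubicin and 6 with nutlin-3, because few changes are that large. With 1 probe set per gene, 2 were called with nutlin-3 and 2 for the difference between responses, since fewer were counted. The DMSO count was 5 with array weights and 1 at an adjusted p under 0.01. Leaving out each array in turn gave 1 to 4 for DMSO (1 without untreated array 1 or DMSO array 2), 4 to 5 with doxorubicin, 3 to 4 with nutlin-3, 4 to 5 for the difference, and 41 to 48 and 23 to 27 pathway genes with doxorubicin and nutlin-3.

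Signs turned only in values that had not passed the test or, for GPC4 204983_s_at, in a fragile call, and causes were not tested. GPC1 202755_s_at with doxorubicin was -0.027 with median centring, -0.38 with doxorubicin array 1 alone, and -0.12 to 0.41 with arrays left out. The GPC1 202756_s_at difference was -0.062 with median centring and -0.037 to 0.21 with arrays left out. The GPC3 209220_at difference was -0.0049 with quantile normalization, -0.023 with median centring and -0.073 to 0.27 with arrays left out. GPC4 204984_at with doxorubicin was -0.10 with median centring and -0.024 to 0.22 with arrays left out. With nutlin-3 and arrays left out, GPC2 ranged from -0.36 to 0.026, GPC6 227059_at from -0.087 to 0.072 and GPC6 223730_at from -0.069 to 0.036 (-0.023 with median centring). Against the other control, GPC3 209220_at and GPC4 204983_s_at with doxorubicin were 0.42 and 0.21, and GPC6 223730_at with nutlin-3 was -0.63. GPC6 with doxorubicin was -3.91 and -2.55 with a pseudocount of 64.

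The labels do not say that replicate numbers pair the arrays. Deviations of same-numbered arrays correlated at -0.067 to -0.033 for doxorubicin and untreated and at 0.009 to 0.20 for nutlin-3 and DMSO, not above 0.1 in every pair. With the replicate number as a block the glypican counts were 5, 4, 4 and 4 for doxorubicin, nutlin-3, DMSO and the difference, and GPC1 202756_s_at was then called for DMSO (adjusted p = 0.044). The fit of only the arrays compared cannot give the difference between responses. Signals near background limit GPC3 and GPC5.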

Other observations

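Some genes of the heparan sulfate and Hedgehog lists, picked after their values were seen, changed in opposite directions with the agents. HS6ST1, a 6-O-sulfotransferase of the chain, rose by 1.10 with doxorubicin and fell by 0.78 with nutlin-3, a difference of 1.88 (adjusted p = 1.8e-07 by limma). SPOCK3 rose by 0.95 with doxorubicin and fell by 1.21 with nutlin-3, a difference of 2.16 (adjusted p = 2e-04). For GAS1 the difference between the responses was 2.42 (adjusted p = 4.8e-08).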
